A study of Homo sapiens with 2 samples.

Results

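This account describes 58 genes of the Wnt pathway among 25702 counted gene features in REH cells (labelled REH-R), an established line of human acute lymphoblastic leukaemia of B-cell precursors (B-ALL). They are all counted features whose symbol is a numbered WNT, FZD, DKK or SFRP gene, plus 19 named receptors, transducers and effectors. All were taken by name with no cutoff on their values, but earlier results of these data were known when they were chosen. The PAX5 culture carried a tetracycline-regulated cassette with PAX5, the B-lineage commitment factor, joined to green fluorescent protein (GFP) through an internal ribosome entry site (IRES). The control culture carried the same regulated IRES and GFP with no PAX5. Both were grown with 1 µg/mL doxycycline for 3 days, and total RNA came from the cells sorted as positive for GFP. Whether either culture was a single clone is not given in the sources used here. Each group is a single library. Nothing below could be checked against replicates, and p-values are not given.

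Wnt proteins are secreted, lipid-modified signals. The acyltransferase PORCN attaches the lipid, and the carrier WLS brings the ligand to the cell surface. At the receiving cell a Frizzled receptor and an LRP5 or LRP6 co-receptor bind the ligand and recruit Dishevelled, which disables a complex of AXIN, APC and GSK3B. That complex otherwise marks beta-catenin for destruction. Stabilised beta-catenin enters the nucleus and acts with TCF and LEF proteins. In the B lineage, LEF1 is known as a factor of early, dividing precursors, and FZD9 as a receptor of developing B cells in the mouse.

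Sequences upstream of WNT4 and FZD4 are shown because they had the highest ratios between the libraries among members with at least 10 counts. Both are the 250 bases before the RefSeq start site, on GRCh38.p14, written 5′ to 3′ on the strand of the gene, with CG dinucleotides in capitals. The first lies at chr1:22143098-22143347 and the second at chr11:86955396-86955645, both on the minus strand. The counts themselves were made on another build.
WNT4: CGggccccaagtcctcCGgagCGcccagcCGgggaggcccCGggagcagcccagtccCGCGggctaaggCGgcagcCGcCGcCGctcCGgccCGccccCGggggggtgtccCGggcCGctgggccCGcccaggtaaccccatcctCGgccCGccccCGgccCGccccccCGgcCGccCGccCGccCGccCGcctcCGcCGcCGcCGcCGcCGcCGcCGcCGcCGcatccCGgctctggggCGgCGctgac
FZD4: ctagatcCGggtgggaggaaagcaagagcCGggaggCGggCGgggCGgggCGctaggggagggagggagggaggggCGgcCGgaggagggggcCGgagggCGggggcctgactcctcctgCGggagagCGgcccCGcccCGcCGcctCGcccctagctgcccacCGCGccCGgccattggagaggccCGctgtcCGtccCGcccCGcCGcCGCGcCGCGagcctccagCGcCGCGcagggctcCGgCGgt
The WNT4 stretch held 40 CG dinucleotides and was 86.8% G and C, and 97.8% of all RefSeq promoter windows held fewer. The FZD4 stretch held 33 and was 80.8% G and C. The median over all windows was 11 CG dinucleotides, and over the windows of the Wnt members 23, with a range of 0 to 49. Of the 58 members, 42 had a window in the table, 51 windows in all. The letters GCGTGAC, a core of the PAX5 consensus, were in 0 of these windows of 300 bases on either strand, against 2.52% of all 35116 windows. The letters CTTTGA, a core of the TCF and LEF consensus, were in 2, those of DKK1 and PORCN, against 12.9% of all. These are matches of letters in short windows and say nothing of binding.

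The libraries held 11944765 (PAX5) and 10997864 (control) counts. PAX5 itself had 8319 counts against 2660, a ratio of 2.91 (exact 95% counting interval 2.78 to 3.04), so the control cells also contained PAX5 transcript. All 10 B-cell precursor markers had at least 10 counts over both libraries, with a median log2 ratio of 0.04, and their summed level was 8543 CPM (counts per 1000000 after scaling) against 8279. Over the 6 T-cell markers and the 5 epithelial markers there was 1 count each, both in the control library. The 6 myeloid markers summed to 66.6 CPM in the PAX5 library against 132.2 in the control, mostly through MPO (554 against 1138 counts), while ELANE was at 0 and LYZ at 1 count in each. The 6 stromal markers summed to 49.6 against 59.5 CPM, mostly PDGFRB (473 against 563 counts). COL1A1 lay the other way (115 against 93 counts), and COL3A1 and LUM were at 0. The part of these differences in the results below was not tested. In bulk RNA, fewer cells with a transcript and less of it per cell cannot be told apart.

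Of the 58 members, 26 had at least 10 counts over both libraries, 14 had 1 to 9, and 18 had 0 in both. A count of 0 allows levels of up to 3 counts, which is 0.252 CPM for the PAX5 library and 0.272 CPM for the control. A gene counted as called if its whole counting interval lay at or beyond 2-fold in either direction. By that rule 1 member, WNT4, was higher in the PAX5 library and 0 were lower. Over all 13532 features with at least 10 counts, 1.34% were called higher and 0.0517% lower, so 1 call among 26 genes is a result about WNT4 and not about the group. The other members lay close together. Leaving out WNT4 and FZD4, the other 24 had log2 ratios from -0.58 to 0.63.

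WNT4, a ligand best known from kidney and female reproductive tract development, had 286 counts in the PAX5 library against 3 in the control library. It was nearly silent in the control and at a middling level with PAX5. The ratio was 88.6-fold, with a counting interval of 30.0 to 432.1, and the log2 ratio was 6.47 (4.91 to 8.76). Corrected for length, its level was 6.16 CPM per kilobase against 0.0695. Set beside every feature with 10 counts or more, 39.9% had a lower level per length than WNT4 in the PAX5-induced library, and 1.23% in the control library. Among the 26 members it had rank 25 by level in the control library and rank 13 in the PAX5 library, just above the receptor gene FZD1. WNT4 met the minimum of 10 counts only through the PAX5 library. Its low rank and low share in the control library follow in part from that filter and rest on 3 counts.

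The genes on either side of WNT4 in the RefSeq order had ratios near 1, and neither was called. CDC42, which encodes a small GTPase of the cytoskeleton, had 2877 against 2716 counts, and its log2 ratio was -0.02 (-0.10 to 0.05). ZBTB40, a zinc finger gene, had 458 against 362 and 0.23 (0.03 to 0.44). No other counted gene overlapped WNT4 in the RefSeq annotation.

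Other Wnt ligands were scarce in both libraries. WNT3, a ligand of the beta-catenin branch, had 25 counts in the PAX5 library against 21 in the control, a log2 ratio of 0.15 (-0.75 to 1.06). WNT11, usually placed in the beta-catenin-independent branch, had 7 against 6. WNT2B had 5 against 5, and it overlaps ST7L (172 against 157 counts), so its few reads are uncertain. The intervals of these 3 genes all included 0 and were wide, so differences of their size were not detectable at this depth. WNT8B had 4 counts against 0, WNT9A 4 against 3, WNT16 2 against 3 and WNT8A 2 against 2. WNT10A, WNT5B and WNT9B had 1 count each in the PAX5 library alone, and WNT3A 1 in the control alone. The other 7 ligands, WNT1, WNT2, WNT5A, WNT6, WNT7A, WNT7B and WNT10B, were at 0 in both.

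Summed over the 18 ligands other than WNT4, there were 52 counts in the PAX5 library against 41 in the control, a log2 ratio of 0.24 (-0.38 to 0.86). WNT4 therefore made up 84.6% of the 338 ligand counts in the PAX5 library (exact 95% interval 80.3 to 88.3) and 6.82% of 44 in the control (1.43 to 18.7). In the control library the leading ligand was WNT3, with 47.7% of the ligand counts (32.5 to 63.3), against 7.40% in the PAX5 library (4.84 to 10.7). The leading ligand transcript was thus WNT3 in the control library and WNT4 in the PAX5 library.

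The genes that prepare ligands for secretion were unequal. PORCN had 83 counts in the PAX5 library against 50 in the control, a log2 ratio of 0.63 (0.10 to 1.16), with the interval above 0 and the gene not past the 2-fold rule. WLS, the carrier that most Wnt proteins need to leave the cell, had 0 counts in both libraries, the PAX5 library with its 286 WNT4 counts included. Counts of transcripts do not show whether WNT4 protein was made or secreted.

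**Figure D1:**
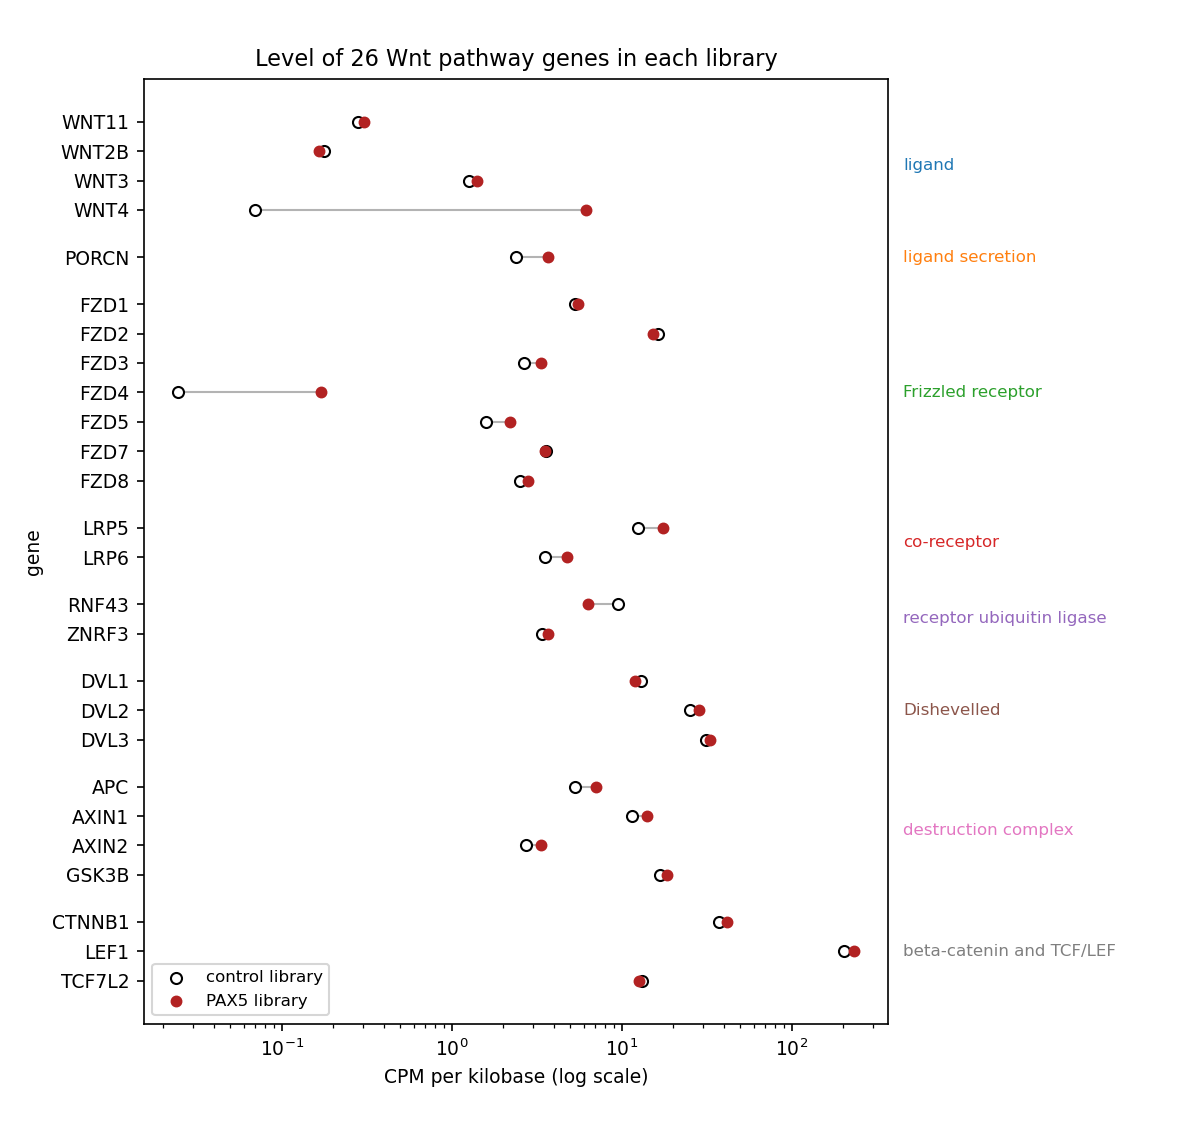
Level per length (CPM per kilobase, log axis) of the 26 members with at least 10 counts, grouped by role, with an open circle for the control library and a filled circle for the PAX5 library (1 library each). WNT4 lay at 0.0695 (control) and 6.16 (PAX5) CPM per kilobase, FZD4 lay far below the other receptors in both libraries, and LEF1 was the most abundant member in both.

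Frizzled receptors were expressed as a broad mixture, and none of the 7 with at least 10 counts was called. FZD2 was the most abundant per length, at 15.4 CPM per kilobase in the PAX5 library against 16.3 in the control (362 against 358 counts). FZD1 followed at 5.53 against 5.28 (286 against 254 counts), and FZD7 at 3.56 against 3.60 (163 against 153 counts). The intervals of FZD1, FZD2 and FZD7 all included 0. FZD3 had 158 against 116 counts, with a log2 ratio of 0.34 (-0.01 to 0.70), and FZD8 had 106 against 89. FZD5 had 173 against 116 counts, and its log2 ratio was 0.47 (0.12 to 0.82). Centred on genes of like length, the FZD5 interval reached down to -0.04.

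FZD4, which also serves as the receptor of the eye and ear vessel factor norrin, had 15 counts in the PAX5 library against 2 in the control. The ratio was 6.97-fold, with a counting interval of 1.62 to 62.8, so its lower bound did not reach 2-fold. It was the member nearest to the rule without passing it, and at 0.171 CPM per kilobase in the PAX5 library it was still the scarcest of the 7 receptors with 10 counts. FZD4 overlaps PRSS23 (4 against 3 counts). FZD6 had 4 against 2 counts. FZD9 and FZD10 were at 0 in both libraries, as were the noncoding genes FZD4-DT and FZD10-AS1 that the symbol rule also took in.

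The LRP co-receptors had small ratios above 0. LRP5 had 1075 counts in the PAX5 library against 706 in the control, a log2 ratio of 0.50 (0.36 to 0.64). LRP6 had 572 against 397, a log2 ratio of 0.42 (0.23 to 0.61). Per length, LRP5 was the more abundant of the pair in both libraries, at 17.6 CPM per kilobase against LRP6 at 4.77 in the PAX5 library. LRP6 is among the longest members, and genes of its length had a median log2 ratio of 0.23. Its centred log2 ratio was 0.19 (0.00 to 0.38), and that of LRP5 was 0.40 (0.27 to 0.54). The receptor tyrosine kinases ROR1 and ROR2, which bind Wnt ligands of the beta-catenin-independent branch, had 0 counts and 1 count in each library, respectively.

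RNF43 and ZNRF3 are membrane ubiquitin ligases that remove Frizzled and LRP6 from the cell surface. RNF43 had 343 counts in the PAX5 library against 478 in the control, a log2 ratio of -0.58 (-0.79 to -0.38). It was the only one of the 26 members with an interval below 0, against 16.8% of all features, and its ratio of 0.667 was well short of the 2-fold rule. RNF43 overlaps the antisense gene TSPOAP1-AS1 (479 against 459 counts), and without a known strand setting their reads cannot be told apart. ZNRF3 had 287 against 245 counts, and its log2 ratio was 0.12 (-0.13 to 0.37). The intervals of these paralogs did not overlap.

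Secreted inhibitors were almost absent. The DKK proteins block LRP5 and LRP6, and SFRP proteins bind Wnt ligands. None of the 8 members reached 10 counts. DKK3, a divergent member of the DKK family, had 7 counts in the PAX5 library against 1 in the control, with a counting interval that included 0 (-0.26 to 8.20 on the log2 scale). SFRP5 had 1 count in the PAX5 library and DKK1 had 1 in the control. DKK2, DKK4, SFRP1, SFRP2 and SFRP4 were at 0 in both libraries.

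Dishevelled genes were at like levels in both libraries. DVL3 had 1985 counts against 1756 and was the most abundant per length, at 33.0 against 31.4 CPM per kilobase. DVL2 had 1025 against 846, a log2 ratio of 0.17 (0.04 to 0.30), and DVL1 had 417 against 420, at -0.12 (-0.32 to 0.08). The DVL3 log2 ratio of 0.07 became -0.02 after centring on length, so its sign depends on that correction.

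All 4 genes of the beta-catenin destruction complex had log2 ratios above 0, GSK3B only before centring on length, and none was called. The scaffold APC had 941 counts in the PAX5 library against 656 in the control, at 0.41 (0.27 to 0.56). It is the longest of the 26 members, and its centred log2 ratio was 0.18 (0.04 to 0.33). AXIN1, the limiting scaffold, had 576 against 438, at 0.29 (0.11 to 0.47). The kinase GSK3B had 1561 against 1322, at 0.13 (0.03 to 0.24), and -0.03 after that centring. AXIN2, a scaffold whose transcript is a widely used readout of beta-catenin activity, had 170 against 128 counts. Its log2 ratio was 0.30 with an interval that included 0 (-0.04 to 0.65), so a difference in AXIN2 was not detectable at this depth.

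LEF1 and CTNNB1 had the highest levels per length of the 26 members in both libraries. CTNNB1, which encodes beta-catenin, had 1845 counts against 1544, a log2 ratio of 0.15 (0.05 to 0.25). LEF1 had 11456 against 9329, a log2 ratio of 0.19 (0.15 to 0.23), and at 233.4 against 204.5 CPM per kilobase it stood above 98.5% of all features with at least 10 counts in the PAX5-induced library, and above 98.1% in the control. TCF7L2 had 645 against 622, at -0.05 (-0.21 to 0.11). TCF7L1 had 0 counts against 2, and TCF7, the T-cell relative of LEF1 that the symbol rule leaves out, had 4 against 2. Of all counts of these 4 TCF and LEF genes, LEF1 held 94.6% in the PAX5 library (exact 95% interval 94.2 to 95) and 93.7% in the control (93.2 to 94.2), not corrected for length. LEF1 overlaps LEF1-AS1 (80 against 83 counts).

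**Figure D2:**
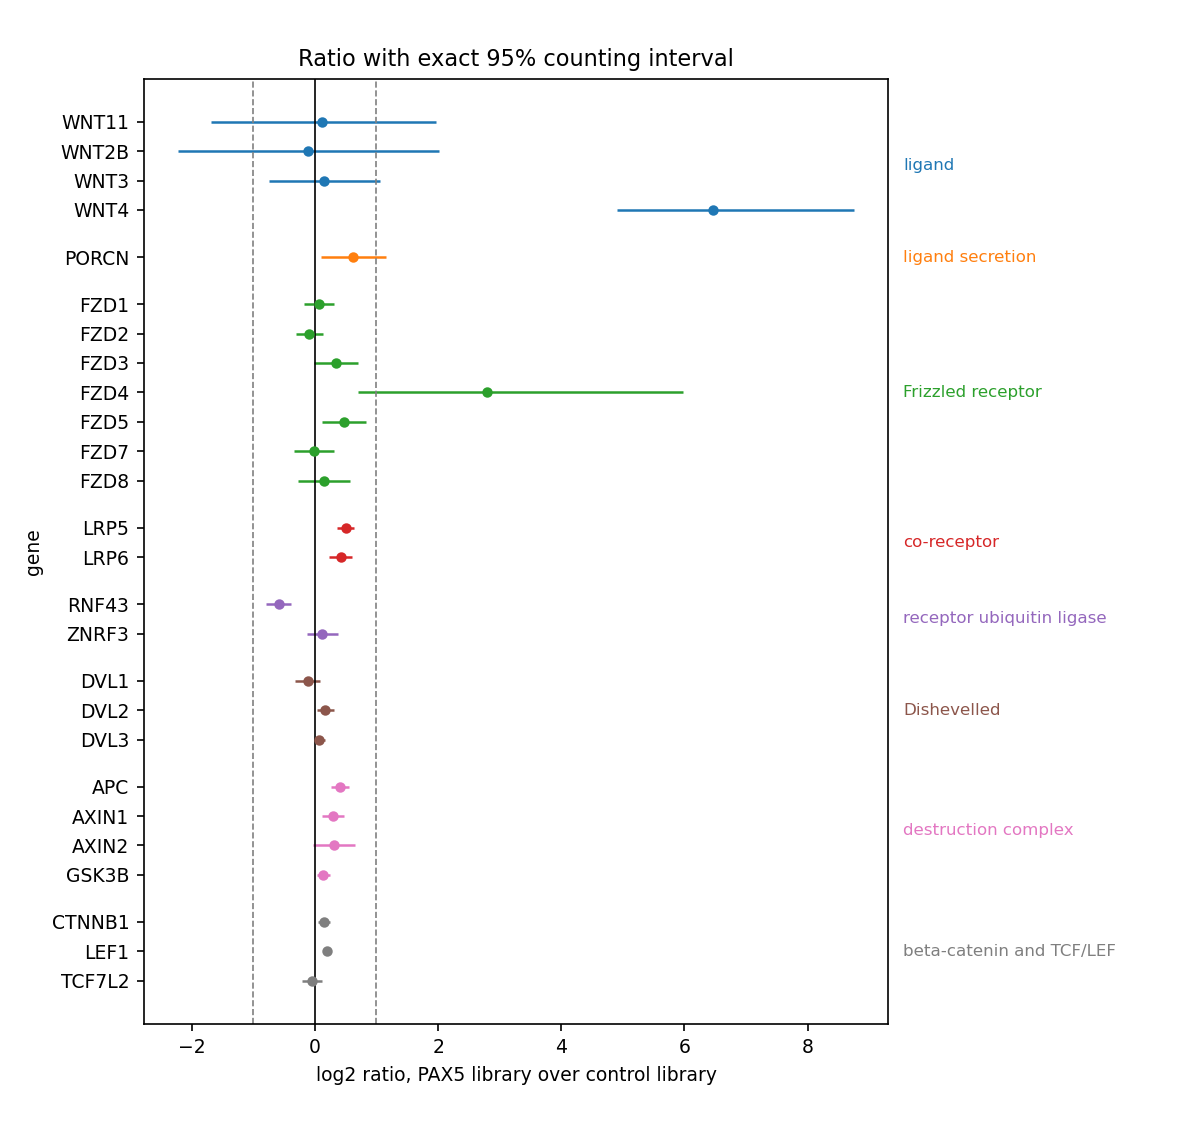
Log2 ratio of the PAX5 library over the control library for the 26 members with at least 10 counts, grouped by role, with exact 95% counting intervals as bars and dashed lines at 2-fold. WNT4 alone lies wholly beyond 2-fold, the FZD4 interval crosses that line, and RNF43 is the only gene with an interval wholly below 0.

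Small ratios above 0 were common among the members. Of the 26, 20 had a log2 ratio above 0 and 6 below. The counting interval lay above 0 for 12 and below 0 for 1, against 18.7% and 16.8% of all features. The 12 were WNT4, PORCN, FZD4, FZD5, LRP5, LRP6, DVL2, APC, AXIN1, GSK3B, CTNNB1 and LEF1. The median log2 ratio of the members was 0.15, beside -0.01 for all features, while their median absolute log2 ratio of 0.16 was below the 0.18 of all features. These intervals cover counting error only. With an assumed biological coefficient of variation of 0.1 between cultures, 3 lay above 0 (WNT4, FZD4 and LRP5) and 1 below (RNF43), against 6.07% and 3.06% of all features. With 0.2, only WNT4 and FZD4 lay above 0 and no member below, against 2.93% and 0.658%.

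Gene length moved with the ratio in these libraries. Over 20 bins of length, the median log2 ratio ranged from -0.25 to 0.23. The members were longer than most genes, with a median of 4031 bases beside 2873. Across the 26 members Spearman's rho of log2 ratio and length was 0.30, and across all 13532 features 0.34. These genes come from the same pair of libraries and are not independent replicates. After each log2 ratio was centred on the median of its length bin, 10 members had intervals above 0 and 1 below, against 15.8% and 14.4% of all features, and the median of the members was 0.17. The WNT4 log2 ratio was 6.43 after centring.

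**Figure D3:**
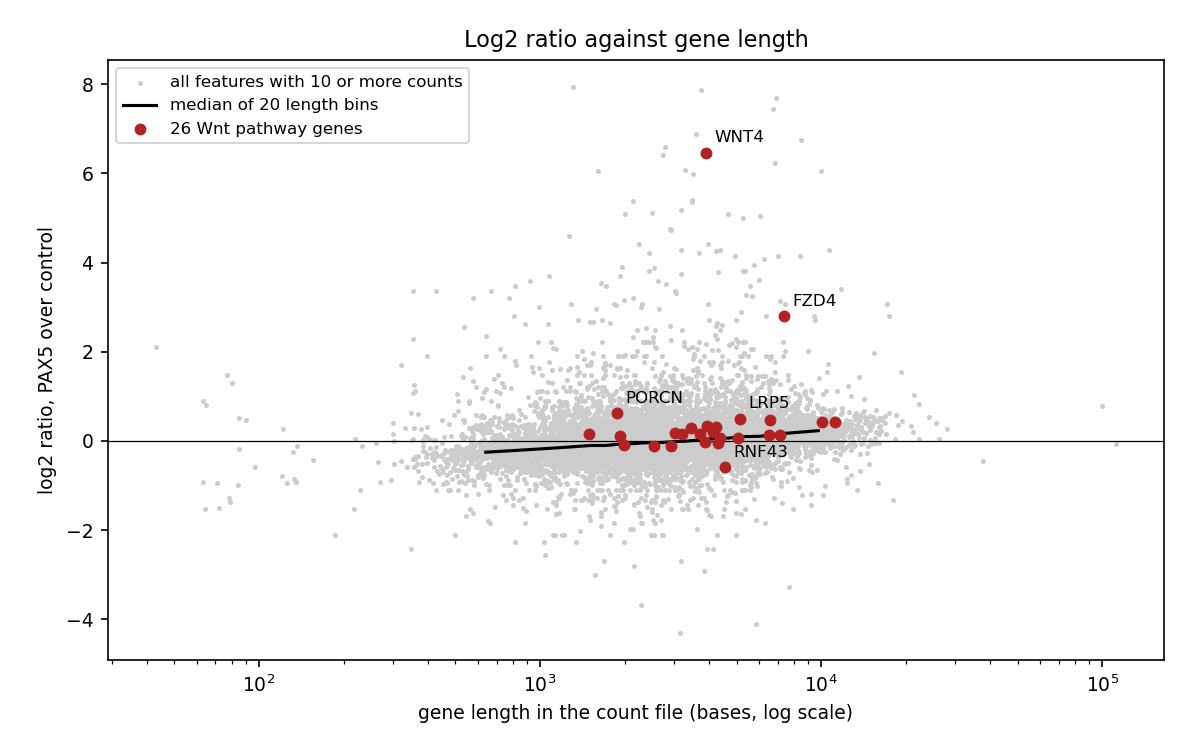
Log2 ratio against gene length (log axis) for all features with at least 10 counts and a count in each library (grey), with the median of 20 length bins (line) and the 26 Wnt pathway genes (red). The line rises with length, most of the Wnt genes lie near it, and WNT4 lies 6.43 above the median of its own length bin.

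The rest of the pathway was described with 6 lists of 142 other genes, chosen with earlier results of these data known. Of the 142 genes, 99 had at least 10 counts. In the PAX5 library 4 were called higher (TLE3, CCND1, FGF18 and ID2) and 0 lower, beside 1.34% and 0.0517% of all features. Over all features, 18.7% of intervals lay above 0 and 16.8% below, or 15.8% and 14.4% after centring on length. Among 24 other regulators of ligands and receptors, 10 were measured and 0 called, with 5 intervals above 0, 2 below and a median log2 ratio of 0.21. RSPO1, a secreted R-spondin that strengthens Wnt signals by way of LGR receptors and the RNF43 and ZNRF3 ligases, had 432 counts in the PAX5 library against 821 in the control, a log2 ratio of -1.03 (-1.20 to -0.86). Its receptor gene LGR5 had 614 against 375, at 0.61 (0.42 to 0.79). The R-spondin and its receptor thus lay on different sides of 0, and neither passed the rule. RSPO2, RSPO3 and RSPO4 were at 0 in both libraries, and LGR4 and LGR6 had 8 counts and 1 count in all.

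Next to these, 3 genes of the same list that act against Wnt reception had intervals on one side of 0, and none was called. APCDD1, an inhibitor that binds ligand and LRP5, had 24 counts against 4, a ratio of 5.58-fold (1.92 to 22.1) with a lower bound just under 2-fold. KREMEN1, a receptor for DKK proteins, had 166 against 94 and a log2 ratio of 0.71 (0.34 to 1.10). TRABD2A, a protease that inactivates Wnt proteins, had 6 against 16 counts and -1.52 (-3.16 to -0.09), but its interval included 0 after centring on length (-3.06 to 0.01).

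Among 30 cytoplasmic transducers, 26 were measured and 0 called, with 7 intervals above 0, 3 below and a median of 0.09. DACT1, a Dishevelled-binding protein, had 193 counts against 83 and a log2 ratio of 1.11 (0.73 to 1.5). CXXC5, another Dishevelled-binding protein, had 165 against 102 and 0.59 (0.22 to 0.96), and the AXIN-modifying enzyme TNKS had 0.32 (0.24 to 0.41), or 0.09 (0.01 to 0.18) after centring on length. On the other side were genes of kinases or kinase subunits, with small ratios. CSNK2B was at -0.22 (-0.30 to -0.13), CSNK1G2 at -0.18 (-0.28 to -0.08) and GSK3A at -0.16 (-0.28 to -0.04). After centring, CSNK2B was at -0.03 and the GSK3A interval included 0 (-0.22 to 0.02).

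Among 25 nuclear cofactors, 22 were measured, 11 had intervals above 0 and 3 below, and the median was 0.14. TLE3, a Groucho-type corepressor that binds TCF and LEF proteins, had 306 counts in the PAX5 library against 95 in the control. It was called higher, at 2.99-fold (2.37 to 3.81). Its paralog TLE1 had 1833 against 1891 and a log2 ratio of -0.15 (-0.24 to -0.06). The corepressor CTBP2 had 1529 against 798 and 0.83 (0.71 to 0.96), whereas its paralog CTBP1 had 1600 against 1724 and -0.21 (-0.31 to -0.11). The acetyltransferase EP300 had 0.39 (0.30 to 0.48), or 0.15 (0.07 to 0.24) after centring, and the beta-catenin cofactor PYGO2 had -0.17 (-0.30 to -0.04). After centring on length, this list had 5 intervals above 0 and 5 below and a median of 0.03, so its excess of ratios above 0 was not kept.

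Among 30 genes known as Wnt and beta-catenin targets in other tissues, 15 were measured, with 7 intervals above 0, 3 below and a median of 0.35. CCND1, which encodes the cell cycle protein cyclin D1, had 104 counts in the PAX5 library against 7 in the control, 13.8-fold (6.47 to 35.2). ID2, an inhibitor of E-proteins, had 302 against 43, 6.53-fold (4.73 to 9.21). FGF18, a fibroblast growth factor, had 29 against 3, 8.98-fold (2.78 to 46.1). These 3 were called higher. Other targets lay on the other side of 0, with MYC at 2503 against 3019 counts and -0.38 (-0.45 to -0.30), PLAUR at -0.67 (-0.99 to -0.36) and BIRC5 at -0.23 (-0.36 to -0.10). LGR5, which is on this list as well, had the interval above 0 given earlier (0.42 to 0.79). Other targets were named after their values were seen. CCND2 was at 1.06 (0.29 to 1.87), JUN at 0.35 (0.02 to 0.67) and PDK1 at 0.13 (0.04 to 0.22), and none was called. After centring on length the PDK1 interval included 0 (-0.03 to 0.16). NKD1 had 2 against 1 counts, TCF7 4 against 2, NOTUM 6 against 8 and SP5 0 in both. CCND1, ID2, FGF18 and MYC are known to answer to other pathways as well, and the counts do not show which pathway acted on them.

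**Figure D4:**
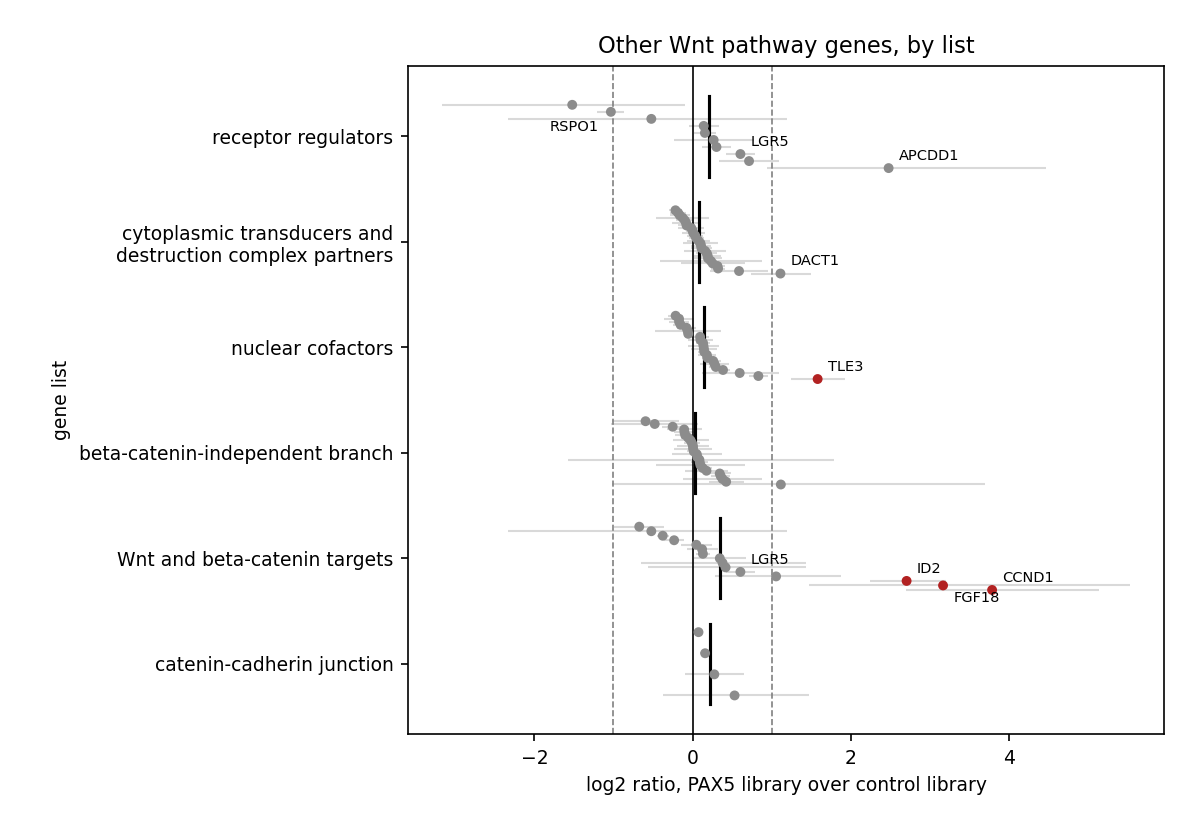
Log2 ratio of the PAX5 library over the control library for the measured genes of the 6 lists, 1 point per gene with its exact 95% counting interval, red where the gene was called higher, with a black bar at the median of each list and dashed lines at 2-fold. The 4 called genes are TLE3, ID2, FGF18 and CCND1, and the list medians lie between 0.04 and 0.35. LGR5 and NOTUM stand on 2 lists each.

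The beta-catenin-independent branch, which steers cell polarity and calcium signals, had no called gene. Of 27 genes, 24 were measured, with a median of 0.04. Their intervals lay above 0 for 4 and below 0 for 2, beside 18.7% and 16.8% of all features. After centring on length, 3 lay above 0 and 7 below, beside 15.8% and 14.4% of all features, and the median was -0.06. DAAM1, a formin that links Dishevelled to the cytoskeleton, had 419 counts against 290 and a log2 ratio of 0.43 (0.21 to 0.65). ROCK2 had 0.36 (0.24 to 0.48) and CELSR2, an atypical cadherin, 0.34 (0.20 to 0.49). The CELSR2 value was 0.11 after centring, with an interval that included 0 (-0.03 to 0.26). PRICKLE3 had 82 against 115 and -0.59 (-1.02 to -0.17), and the kinase gene CAMK2G had -0.25 (-0.39 to -0.11).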

How the data were processed

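The authors deposited raw, whole-number read counts with the Entrez number and length in bases of each gene. Per the submitters' processing notes, featureCounts was the counter and hg19 (GRCh37) the build. For the aligner, the strand setting and all versions, the sources used here give nothing. Per the labels' protocols, the RNA kit was QIAGEN RNeasy and the library kit NEBNext Ultra. Groups came from the genotype labels, with 1 library each. Each column of the series table was matched to its library by the number in the name of that library's file, and all 51404 values were equal in both.

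Symbols came by Entrez number from RefSeq GRCh38.p14 (23696 of 25702 features; the rest held 0.519% and 0.59% of the counts). Scaling was by TMM (edgeR 4.0.16, factors 0.9954 and 1.0046, from features with at least 10 summed counts). Intervals are exact Clopper-Pearson 95% intervals given the summed count (scipy 1.17.1) and cover counting error only, since PCR copies are not independent molecules and cultures were not replicated. With no residual degrees of freedom, no count model could be tested in edgeR or DESeq2. The calculation was tested on simulated counts with counting error only, which cannot speak to variation between cultures. Members, lists and rule were chosen with earlier results of these data known. All members with at least 10 counts are named with their values, and the others by name and count. List genes are named when called or among the 3 with the largest bounds on each side. CCND2, JUN, PDK1, LGR4, LGR6, NKD1, NOTUM, SP5, TCF7 and the other R-spondins were added after their values were seen. Alternatives were other scalings (total counts, DESeq2 1.42.0, upper quartile), count minimums, fold thresholds, an assumed biological variation, centring on length, the mean, and the single files.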

Additional observations from a re-analysis of the deposited data

How the results depend on the processing

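WNT4 was called under each of the scalings, count minimums, fold thresholds, assumed variations and the length centring, and 0 members were called lower under any of them. A bound at 1.5-fold or a point ratio at 2-fold gave 2 members called higher, WNT4 and FZD4. The shares of all features called at these looser settings were not computed, so the 2 calls say nothing about the group. Intervals above 0 numbered 10 to 12 of the members under other scalings, count minimums and length centring, but 3 with an assumed coefficient of variation of 0.1 and 2 with 0.2, and with 0.2 the number below 0 was 0. The median log2 ratio of 0.15 lay between 0.12 and 0.17 in all alternatives but the mean. The mean was 0.50, with the high log2 ratios of WNT4 (6.47) and FZD4 (2.80) entering it. No member changed sign under another scaling, and centring on length gave GSK3B and DVL3 log2 ratios of -0.03 and -0.02. No replicate could be left out and no paired analysis was possible because each group has 1 library. Depth limits the ligands other than WNT4, the secreted inhibitors and FZD4, which rest on few reads.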

Other observations

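The junction partners of beta-catenin were measured as well. Of 10 genes of the catenin and cadherin junction, 4 had at least 10 counts, and 0 were called. JUP, which encodes plakoglobin, the close relative of beta-catenin, had 7439 counts in the PAX5 library against 6560 in the control, a log2 ratio of 0.08 (0.03 to 0.12). CTNNA1, which encodes the alpha-catenin that ties beta-catenin to actin, had 4133 against 3439 and 0.16 (0.09 to 0.23). CDH1 and CDH2, the classical cadherins of epithelium and nerve, had 1 count each over both libraries.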
